A study of Mus musculus with 4 samples.

Results

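The Siglecs are receptors of the immunoglobulin superfamily that bind sialic acid on glycoproteins and glycolipids. The mouse genes Siglech, Siglec1, Siglece, Siglecf, Siglecg, Cd22 and Cd33 were taken by name from the gene table, which held all 7 among its 49490 genes. Of these, 6 passed the filter on low values (a normalized count of at least 10 in at least 2 libraries), as did 18378 genes in all. The series measured polyadenylated RNA of CD8+ T cells, the cytotoxic T lymphocytes, from mouse spleen and lymph node, which had been activated in vitro. It had 2 libraries labelled Irf8 knockout, of genotype Irf8-/-, and 2 labelled WT, whose cells carried the floxed Irf8 allele (Irf8fl/fl). The sources used here do not give the Cre driver, the strain, sex and age of the mice, or the stimulus and its duration, and nothing in the labels says that replicates came from separate animals or cultures. Each p below thus measures the spread of these libraries alone, and that spread may be technical.

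Irf8, the transcription factor gene targeted in the study, had normalized counts of 89508 and 90222 in the libraries labelled knockout, against 6364 and 6081 in the libraries labelled WT. It was 14.4-fold higher in the libraries labelled knockout, a direction that goes against the labels, so both groups are named by their labels and each direction is that of the labelled knockout over the labelled WT libraries. The libraries held 58899365 to 59724952 reads each. Of the genes tested, 33.4% passed an adjusted p of 0.05 in limma (19.9% higher and 13.4% lower), 34.5% passed in edgeR on recovered reads, and 68.8% had groups with no overlap. The median log2 fold change over all genes tested was 0.02. Of 16 genes of CD8 T cell identity, 14 fell and Tcf7 was called higher, a call lost with no filter, without robust variance and without knockout-labelled replicate 1 or 2 or WT-labelled replicate 2, and a sign turned (-0.13) with each library centred on its median. Among those that fell, Cd3d was at 31237 ± 552 in the libraries labelled knockout and 54583 ± 1172 in those labelled WT (SD, n = 2 each). Trac, the T cell receptor alpha constant gene, did not pass, with a log2 fold change of -0.01. It was at 104596 and 101353 in the libraries labelled knockout and 104094 and 103284 in those labelled WT. In bulk RNA a smaller share of cells of a type and less RNA per cell cannot be told apart.

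Most Siglecs carry inhibitory tyrosine motifs (ITIMs) in their tails, which recruit the phosphatase SHP-1, encoded by Ptpn6. Siglec-H has no such motif and signals through the adaptor DAP12, encoded by Tyrobp, and Siglec-1 reaches out from macrophages to bind sialylated cells. In spleen and lymph node the genes are known from separate cells: Siglech from plasmacytoid dendritic cells, Siglec1 from macrophages, Siglece from myeloid cells, Siglecf from eosinophils, Siglecg from B cells and dendritic cells, Cd22 from B cells and Cd33 from myeloid cells.

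Siglech, Siglecg, Cd33 and Siglece rose in the libraries labelled knockout, and no member fell. Siglecf and Cd22 did not pass the test, and Siglec1 was too low to be tested. The 4 of 6 tested members that rose stand beside 19.9% of all genes tested. Among the 4, Cd33 passed the filter on low values through the libraries labelled knockout alone and could not have been called lower. Over the 6, log2 fold changes ran from 0.04 for Cd22 to 8.94 for Cd33, with a median of 4.07. With 2 libraries per group the smallest two-sided p of an exact permutation test is 0.333, so the tests are those of limma across all genes.

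**Figure D1:**
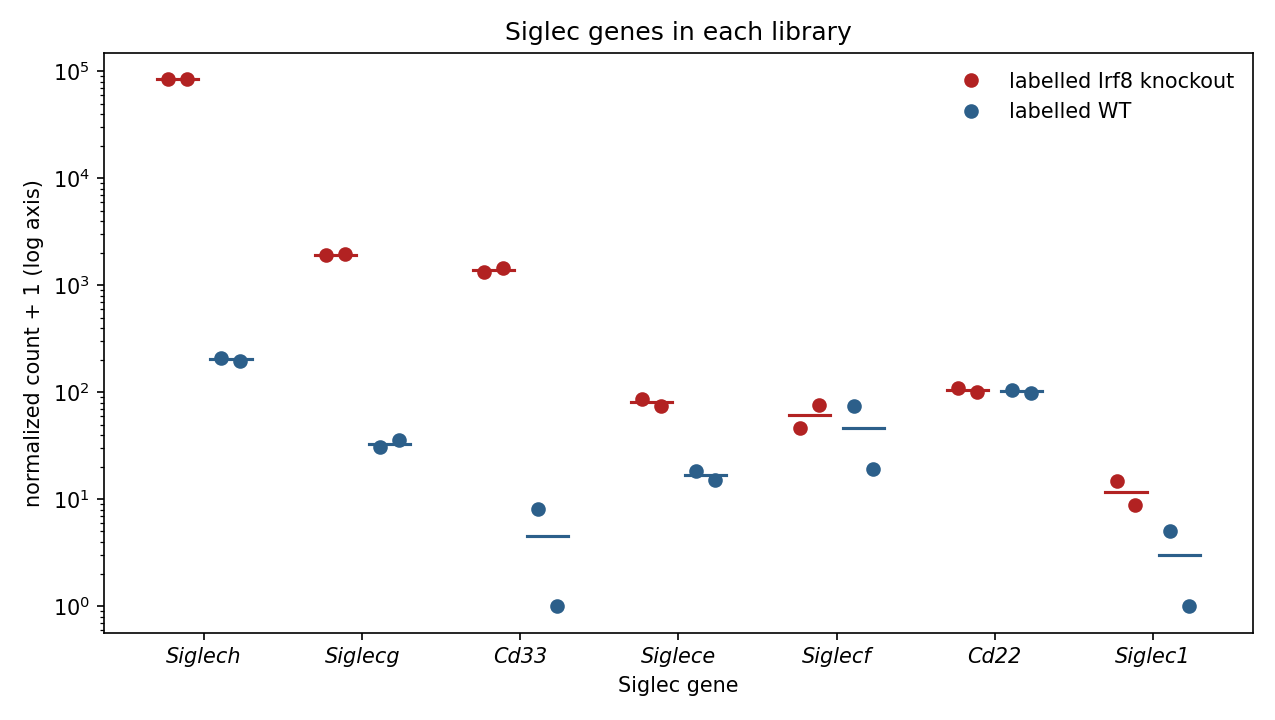
Normalized counts plus 1 (log axis) of the 7 Siglec genes in each library, with points for libraries and bars for group means, n = 2 each. Siglech stood at 84171 and 84408 in the libraries labelled knockout and at 210 and 194 in those labelled WT, while the groups of Siglecf and Cd22 overlapped.

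Siglech, the DAP12-coupled receptor of plasmacytoid dendritic cells (ENSMUSG00000051504.18, chromosome 7, 55768178 to 55778925, plus strand, GRCm38/mm10), was at a normalized count of 84171 and 84408 in the libraries labelled knockout, against 210 and 194 in the libraries labelled WT. The groups were far apart and each pair of libraries lay close together. Group means differed 418-fold, and the log2 fold change was 8.70 ± 0.06 (SE; limma adjusted p = 3.53e-08). Of the 18378 genes tested, 21 had a larger log2 fold change. Per kilobase of exonic length, Siglech ranked 135 of 17715 genes with a known length in the libraries labelled knockout and 11262 in those labelled WT. The reads in the libraries labelled WT numbered 206 and 190, which is above the floor of 3 reads that a count of 0 allows. The 250 bases before its RefSeq start (GRCm38.p6, chr7:55767934-55768183, plus strand) are shown because Siglech carried nearly all Siglec reads of the libraries labelled knockout, with the match to the E-box CACCTG in capitals.
Siglech: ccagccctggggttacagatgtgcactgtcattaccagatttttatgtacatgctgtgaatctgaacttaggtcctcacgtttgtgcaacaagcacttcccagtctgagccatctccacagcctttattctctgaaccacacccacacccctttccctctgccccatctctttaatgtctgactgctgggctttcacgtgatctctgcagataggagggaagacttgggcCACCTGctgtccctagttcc
The table held 7 windows of 6 members, with a pair of starts for Siglecg and none for Siglec1. Each was searched on both strands over its 250 bases before the start, for 5 motifs. These were the ETS-IRF composite (GGAA, any 2 bases, GAAA), the interferon response core (GAAA, any 2 bases, GAAA), the PU.1-type ETS site GAGGAAG, and the E-boxes CAGCTG and CACCTG. E-boxes are bound by factors such as TCF4, the E protein of plasmacytoid dendritic cells, and the composite by IRF8 with PU.1. The CACCTG of Siglech lay at position -20 from the start site, and 17.1% of 27025 genes held this motif in the same window. The composite, held by 2.38% of genes, the response core, held by 3.04%, and CAGCTG, held by 12.8%, had no match in the 6 members, which says only that these letters are not in these windows.

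Siglecg, which encodes an ITIM receptor that dampens B cell receptor signalling (ENSMUSG00000030468.12, chromosome 7, 43408204 to 43418358, plus strand), had normalized counts of 1907 and 1977 in the libraries labelled knockout, against 29.5 and 34.7 in those labelled WT. The groups did not overlap. Group means differed 60.5-fold, and the log2 fold change was 5.88 ± 0.16 (SE; limma adjusted p = 2.07e-06). Among windows of 50 bases in its longest transcript, 5.78% occurred in a transcript of another gene, the largest share in the family, so part of its reads could be assigned elsewhere. That share was 1.07% for Siglech, 0.61% for Cd22, 0.55% for Cd33 and 0.23% for Siglecf, and no such window was found in Siglece or Siglec1. The 250 bases before the upstream RefSeq start (GRCm38.p6, chr7:43407989-43408238, plus strand) are shown because Siglecg was the member next in level to Siglech in the libraries labelled knockout, with the PU.1-type match in capitals, read as GAGGAAG on the opposite strand.
Siglecg: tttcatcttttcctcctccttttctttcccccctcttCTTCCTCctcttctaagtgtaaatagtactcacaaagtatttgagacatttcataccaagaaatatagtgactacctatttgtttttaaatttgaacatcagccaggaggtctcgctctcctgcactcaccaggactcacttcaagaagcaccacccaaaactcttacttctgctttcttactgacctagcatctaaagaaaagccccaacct
GAGGAAG was found in 10.4% of genes. Besides Siglecg, where it lay at position -213, it was found in Cd33 at -226, in Siglecf at -66 and in Siglece at -88 and -37. Members with this match included Siglecf, which did not pass the test.

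Cd33, a receptor of myeloid cells (ENSMUSG00000004609.11, chromosome 7, 43524216 to 43544428, minus strand), had normalized counts of 1337 and 1457 in the libraries labelled knockout, against 7.12 and 0 in those labelled WT. Replicate 1 alone held the reads of the WT label, 7 in number. Cd33 thus passed the filter on low values through the libraries labelled knockout alone and could not have been called lower. The ratio of means was 392 with an exact 95% counting interval of 190 to 975, which covers counting error only. The log2 fold change was 8.94 ± 1.03 (SE; limma adjusted p = 0.00377). With 0 reads in WT-labelled replicate 2, this value depends on the pseudocount. The call was lost without knockout-labelled replicate 1 (limma adjusted p = 0.0522) or 2 (0.0570).

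Siglecf, an ITIM receptor of eosinophils (ENSMUSG00000039013.16, chromosome 7, 43351341 to 43359531, plus strand), had normalized counts of 45.1 and 75.9 in the libraries labelled knockout, against 73.3 and 18.4 in those labelled WT. The groups overlapped, and the libraries labelled WT lay further apart than the group means did. The log2 fold change was 0.65 ± 0.65 (SE; limma adjusted p = 0.491). Leaving out WT-labelled replicate 1 gave a log2 fold change of 1.62 (adjusted p = 0.0215), and leaving out replicate 2 gave -0.32 (adjusted p = 0.583). Cd33 and Siglecf are paralogs of 1 cluster whose bases before the start resemble each other, although Cd33 rose and Siglecf did not pass the test. The 250 bases before each RefSeq start, which for Cd33 lies inside the GENCODE gene, are printed for that reason, Cd33 from chr7:43533172-43533421, minus strand, and Siglecf from chr7:43351091-43351340, plus strand (RefSeq, GRCm38.p6), with bases identical in their alignment in capitals.
Cd33: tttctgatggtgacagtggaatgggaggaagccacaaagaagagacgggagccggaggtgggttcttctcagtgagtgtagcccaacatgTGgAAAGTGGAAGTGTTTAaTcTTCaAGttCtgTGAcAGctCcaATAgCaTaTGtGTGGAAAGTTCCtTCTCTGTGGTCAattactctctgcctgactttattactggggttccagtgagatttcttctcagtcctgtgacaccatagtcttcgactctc
Siglecf: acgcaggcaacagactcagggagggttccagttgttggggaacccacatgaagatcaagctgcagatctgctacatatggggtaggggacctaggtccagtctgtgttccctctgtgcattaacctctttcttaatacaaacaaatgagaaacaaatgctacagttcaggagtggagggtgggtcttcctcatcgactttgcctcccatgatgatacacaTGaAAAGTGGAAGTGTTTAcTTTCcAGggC
The local alignment took in the first bases past each start as well. It had 80 columns with 62 identical bases, or 77.5%, and a longest exact run of 16. It began at position -160 in Cd33 and at -30 in Siglecf, where it ran 49 bases past the start site and is not printed further. Of 15 pairs of members aligned, this one had the highest score, 68, and the next highest score was 22. The same stretch thus lay at different distances from the annotated starts.

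Siglece, an ITIM receptor of neutrophils, macrophages and dendritic cells (ENSMUSG00000030474.9, chromosome 7, 43651070 to 43660161, minus strand), had normalized counts of 86.2 and 73.0 in the libraries labelled knockout, against 17.3 and 14.3 in those labelled WT. The groups did not overlap, at a level near the filter on low values in the libraries labelled WT. Group means differed 5.04-fold, and the log2 fold change was 2.26 ± 0.33 (SE; limma adjusted p = 0.0030). The call was lost without knockout-labelled replicate 1 (log2 fold change 2.15, adjusted p = 0.0728) or 2 (2.38, adjusted p = 0.0614).

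Cd22, the ITIM receptor that restrains B cell receptor signalling (ENSMUSG00000030577.14, chromosome 7, 30865402 to 30880342, minus strand), had normalized counts of 108 and 100.3 in the libraries labelled knockout, against 105 and 98.0 in those labelled WT. All 4 libraries lay within the same narrow range and the groups overlapped. The ratio of means was 1.03, with an exact 95% counting interval of 0.841 to 1.25 that covers counting error only. The log2 fold change was 0.04 ± 0.21 (SE; limma adjusted p = 0.915), and it was -0.26 with each library centred on its median. An annotated antisense gene, Gm29439, overlaps Cd22 over 601 bases, and the sources used here do not say whether counting used strand. The 250 bases before its RefSeq start, inside the GENCODE gene (GRCm38.p6, chr7:30879029-30879278, minus strand) are shown because Cd22 had overlapping levels in the groups, with its CACCTG, at position -245, in capitals.
Cd22: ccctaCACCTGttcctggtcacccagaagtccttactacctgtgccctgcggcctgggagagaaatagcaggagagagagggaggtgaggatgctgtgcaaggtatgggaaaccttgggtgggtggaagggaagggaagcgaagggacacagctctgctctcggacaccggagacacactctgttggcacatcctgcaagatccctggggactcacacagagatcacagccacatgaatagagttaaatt
The E-box letters found in Siglech were thus also found in Cd22, further from the start.

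Siglec1, the macrophage receptor sialoadhesin or CD169 (ENSMUSG00000027322.11, chromosome 2, 131069220 to 131086765, minus strand), had 14 and 8 reads in the libraries labelled knockout, against 4 and 0 in those labelled WT. Its values did not overlap, but it was under the filter on low values and had no test in the set of genes above. With no filter its log2 fold change was 2.34 and its limma adjusted p 0.180. Of the lectins of the same family outside these 7, Mag, which encodes a Siglec of myelinating glia, had normalized counts of 39.2 and 27.3 in the libraries labelled knockout, against 3.05 and 9.19 in those labelled WT. Its log2 fold change was 2.39 ± 0.64 (SE; limma adjusted p = 0.0317). The call was lost without knockout-labelled replicate 1 (adjusted p = 0.264) or 2 (0.187) and with no filter (0.0505), and the authors' deposited table gives an adjusted p of 0.0731. Siglec15, which couples to DAP12 in osteoclasts, had 0 reads in each of the 4 libraries, which allows up to 3 reads per library.

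**Figure D2:**
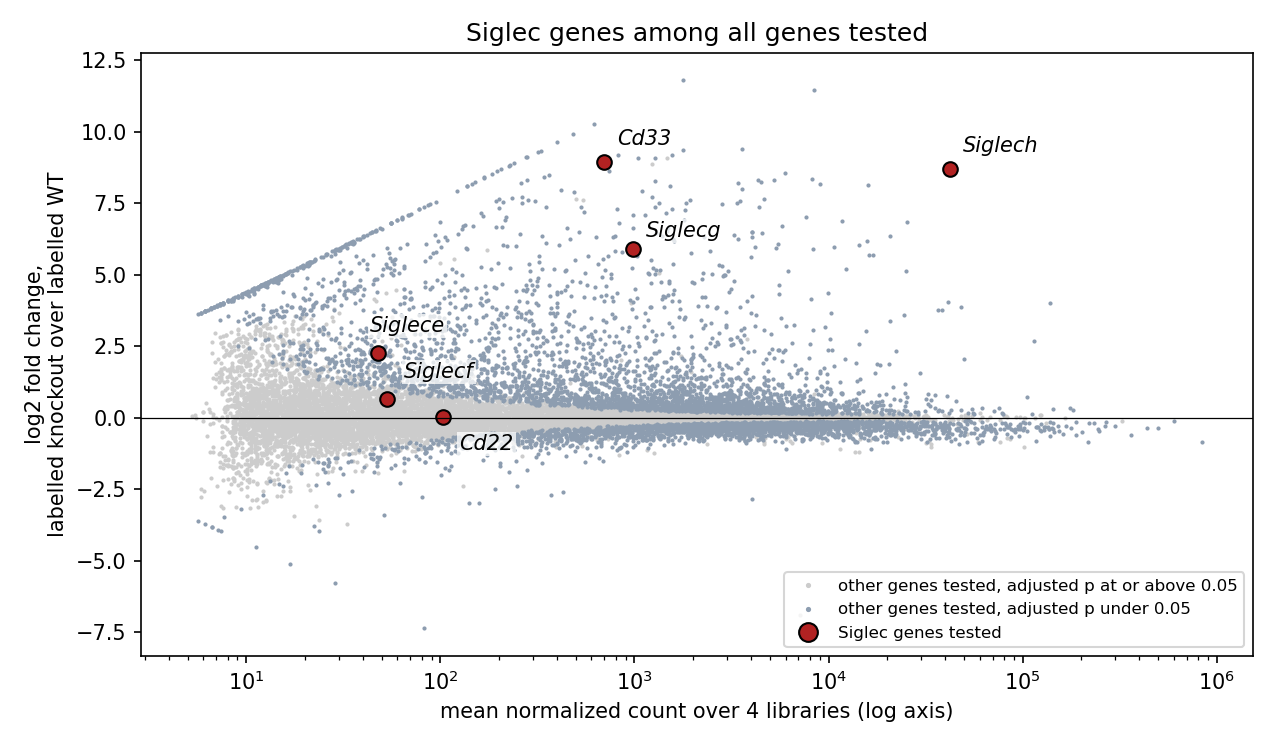
Log2 fold change of the libraries labelled knockout over those labelled WT against the mean normalized count over 4 libraries (log axis), for all 18378 genes tested, with the 6 Siglec genes tested in red. Siglech and Cd33 lie at 8.70 and 8.94, Siglecg at 5.88 and Siglece at 2.26, while Siglecf (0.65) and Cd22 (0.04) lie in the band of genes that did not pass.

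The make-up of the family differed between the groups. Per kilobase of exonic length, Siglech averaged 24916 normalized counts in the libraries labelled knockout, followed by Siglecg (404), Cd33 (180), Siglece (43.1), Siglecf (21.7), Cd22 (20.6) and Siglec1 (1.51). Siglecf and Cd22 overlapped there, at 16.2 and 27.2 against 21.4 and 19.9, and the other neighbours in that order did not overlap. In the libraries labelled WT the order per kilobase was Siglech (59.7), Cd22 (20.1), Siglecf (16.4), Siglece (8.54), Siglecg (6.68), Cd33 (0.458) and Siglec1 (0.285). There Siglecf, at 26.3 and 6.59, overlapped Cd22, Siglece and Siglecg, and Cd33 overlapped Siglec1.

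Siglech held 96.0% and 95.8% of the summed normalized counts of the 7 members in the libraries labelled knockout, against 47.0% and 54.0% in those labelled WT. Per kilobase the shares were 97.4% and 97.3% in the libraries labelled knockout and 49.2% and 58.3% in those labelled WT. The summed normalized counts were 87668 and 88099 in the libraries labelled knockout, against 446 and 359 in those labelled WT. Without Siglech the sums were 3497 and 3691 in the libraries labelled knockout and 236 and 165 in those labelled WT, so that the other members together were also higher in both libraries labelled knockout. Cd22 held 0.123% and 0.114% of the family's counts in the libraries labelled knockout, against 23.5% and 27.3% in those labelled WT. These shares are a description with no test.

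**Figure D3:**
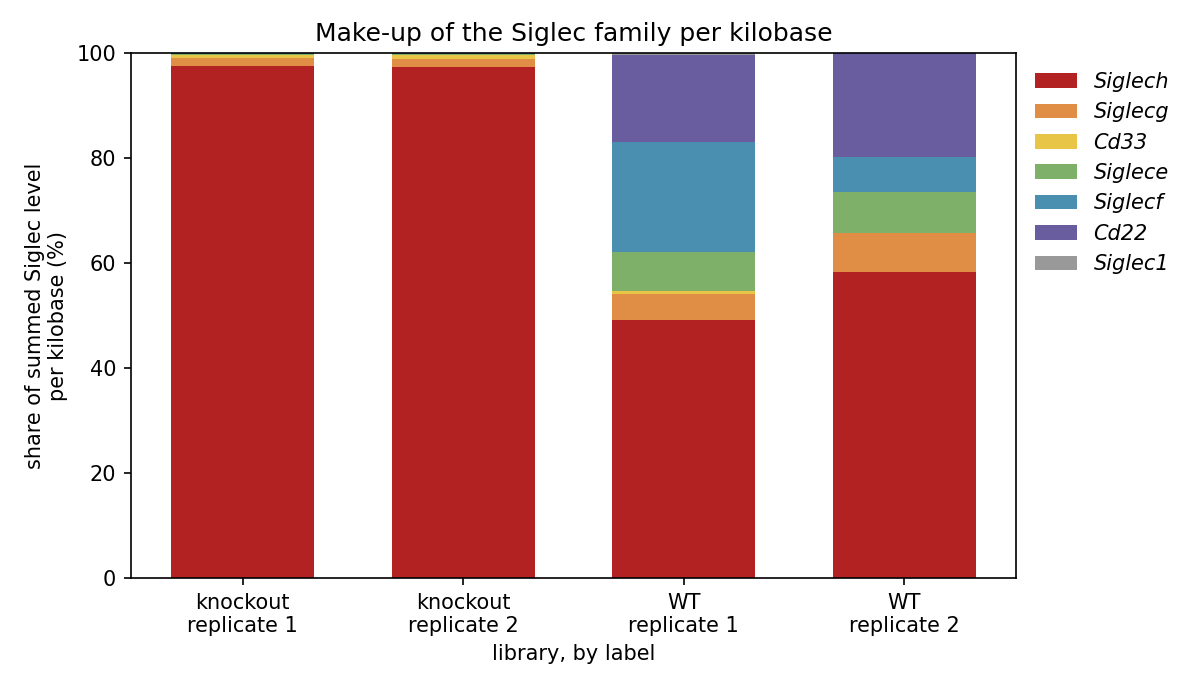
Share of each Siglec gene in the summed level per kilobase of the family, in percent, 1 bar per library. Siglech fills 97.4% and 97.3% of the bars of the libraries labelled knockout and 49.2% and 58.3% of those labelled WT, where Cd22 and Siglecf take most of the rest.

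Most genes listed for the pathway through which Siglec-H signals moved with Siglech. Of 9 genes listed for DAP12 signalling, 8 rose and 1 fell, beside 19.9% and 13.4% of all genes tested. Their median log2 fold change was 2.74. The list also held the separate adaptor genes Fcer1g, which rose, and Hcst, which was the gene that fell. Tyrobp, the adaptor DAP12 that Siglec-H needs to signal, had normalized counts of 48485 and 49111 in the libraries labelled knockout, against 1414 and 1379 in those labelled WT. It was 35.0-fold higher (log2 fold change 5.13, limma adjusted p = 4.32e-08). Fcer1g, the Fc receptor gamma chain adaptor, rose 6.68-fold. Syk, the kinase that these adaptors recruit, was at 7610 and 7966 in the libraries labelled knockout, against 149 and 164 in those labelled WT. Both adaptors and the kinase were thus high in the same libraries as Siglech. Blnk, the linker downstream of Syk, was at 7020 and 6909 in the libraries labelled knockout, against 56.0 and 22.5 in those labelled WT. Hcst, which encodes the DAP10 adaptor of T and NK cells, fell by 1.09 on the log2 scale, with 10587 and 10232 in the libraries labelled knockout against 18268 and 26776 in those labelled WT. Its call was lost with a pseudocount of 10, a minimum of 50, edgeR and without knockout-labelled replicate 1 or 2.

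Partners of the inhibitory Siglecs were measured too. Of 11 genes listed for the ITIM pathway, 7 rose and 1 fell, beside 19.9% and 13.4% of all genes tested. Their median log2 fold change was 0.34. The list held kinases and phosphatases and also Socs3 and Cbl, which are neither. Both were among the 7 that rose, at 0.34 and 0.30 on the log2 scale. With each library centred on its median, 5 of the 11 were called higher and 4 lower, and Socs3 and Cbl were not called. Lyn, the kinase that phosphorylates the motifs of CD22 in B cells, rose 9.25-fold to 7507 ± 47.1 in the libraries labelled knockout, against 812 ± 14.2 in those labelled WT (SD, n = 2 each). Ptpn6, the phosphatase SHP-1 that the motifs recruit, rose 1.55-fold. Ptpn11, which encodes SHP-2, and Inpp5d, which encodes the lipid phosphatase SHIP-1, did not pass, at -0.13 and 0.08 on the log2 scale. Lck, the kinase of the T cell receptor, fell by 0.59 on the log2 scale. The difference between this list and the DAP12 list was not tested.

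Enzymes that build the sialic acid ligands were measured as well. Of 6 genes of sialic acid synthesis, 2 rose and 0 fell, beside 19.9% and 13.4% of all genes tested, and with median centring 2 were called higher and 2 lower. Cmah, the hydroxylase that makes the glycolyl form of sialic acid, which mouse CD22 prefers, rose 1.94-fold, and Gne, which starts sialic acid synthesis, 1.84-fold. Of 15 sialyltransferases tested out of 20 listed, 7 rose and 1 fell. Without knockout-labelled replicate 1 or 2 the number higher was 3, and with median centring 6 were called higher and 4 lower. St6gal1, which makes the alpha-2,6-linked sialic acid that CD22 binds, was at 2137 and 2151 in the libraries labelled knockout, against 451 and 437 in those labelled WT, a log2 fold change of 2.27 (limma adjusted p = 6.95e-06). St8sia4, a polysialyltransferase, rose 2.63-fold and St3gal6 fell by 0.45 on the log2 scale. Of 6 sialidases and acetyl-modifying enzymes tested, Siae, the esterase that removes acetyl groups from sialic acid, rose 1.25-fold, a call lost with median centring, which called 1 gene lower, and without knockout-labelled replicate 1 or 2, and 0 fell.

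Glycoproteins known to carry ligands of Siglecs moved in both directions, with 3 higher and 3 lower of 9, beside 19.9% and 13.4% of all genes tested. The number lower was 1 without knockout-labelled replicate 1 or 2, and median centring called 2 higher and 5 lower. Cd24a, a partner of Siglec-G, rose 19.4-fold, with 2839 and 2833 in the libraries labelled knockout against 165 and 128 in those labelled WT. Cd44 rose 1.46-fold. Spn, the CD43 sialoglycoprotein of T cells that Siglec-1 binds, fell by 0.25, and Lgals3bp by 0.30 on the log2 scale. The call of Spn was lost without knockout-labelled replicate 2 (limma adjusted p = 0.0524) and that of Lgals3bp without replicate 1 (0.0513). Ptprc, the CD45 that CD22 binds, did not pass, with a log2 fold change of -0.08.

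Markers of the cells in which these receptors are known moved in separate ways. All 18 markers of plasmacytoid dendritic cells rose, beside 19.9% of all genes tested. This list, like the other lists, was chosen with earlier results of these data known, so its count is a description and no independent support. Their summed normalized counts were 310370 and 309785 in the libraries labelled knockout, against 24789 and 24577 in those labelled WT. Ccr9, a chemokine receptor of these cells and of gut T cells, rose 51.0-fold and Pacsin1 19.8-fold, and among the 18 markers 2, Klk1 and Cd300c, had a larger log2 fold change than Siglech. These values moved with Siglech, and their part in its difference was not tested. None of the 18 was at 0 in the libraries labelled WT. Klk1, at 8.14 and 3.06 there, passed the filter through the libraries labelled knockout alone.

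B cell markers, beside Cd22 and Siglecg, rose in 7 of 12 tested and fell in 0, against 19.9% and 13.4% of all genes tested. Among the 12, Ebf1, Blk and Fcer2a were under 10 in both libraries labelled WT and could not have been called lower. Their sums were 46113 and 45847 in the libraries labelled knockout and 7896 and 7507 in those labelled WT. Without knockout-labelled replicate 1 or 2 the number higher was 4. Ighm, the immunoglobulin M heavy chain, rose by 2.32 on the log2 scale, and Fcrla was at 7216 and 7120 in the libraries labelled knockout, against 22.4 and 33.7 in those labelled WT. Pax5, the factor that fixes B cell identity, was near 0, with 3.92 and 6.81 in the libraries labelled knockout, against 6.11 and 0 in those labelled WT. Cd22, at 108 and 100.3 in the libraries labelled knockout and 105 and 98.0 in those labelled WT, was thus measured beside B cell genes near 0, such as Pax5, and others, such as Ighm, that were not.

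Of the 14 macrophage markers tested, beside Siglec1 and Cd33, 3 rose and 7 fell, against 19.9% and 13.4% of all genes tested. They had a median of -0.69 and sums of 22841 and 22669 in the libraries labelled knockout against 17064 and 18820 in those labelled WT. Cd68 and Lyz2, which moved in opposite directions, made up most of these sums. Cd68 was at 11390 and 10918 in the libraries labelled knockout against 1687 and 1947 in those labelled WT. Lyz2 was at 8434 and 8324 against 11385 and 13023, so the higher sums came with Cd68. The number lower was 1 without knockout-labelled replicate 1 and 2 without replicate 2. Cd68 rose 6.14-fold and Cd163 18.8-fold, while C1qb fell to 353 ± 0.265 in the libraries labelled knockout against 1022 ± 70.2 in those labelled WT (SD, n = 2 each), and Lyz2 fell by 0.54 on the log2 scale, a call lost without knockout-labelled replicate 1 or 2. Vsig4 was at 0 in each of the 4 libraries, and Marco in all but WT-labelled replicate 1. Conventional dendritic cell markers rose in 11 of 12, against 19.9% of all genes tested. Their sums were 41947 and 42208 in the libraries labelled knockout and 18372 and 17925 in those labelled WT, Flt3 rising 89.9-fold and Clec10a 40.4-fold. Among the 11, Itgax (0.13 on the log2 scale) was called lower with median centring (-0.17, limma adjusted p = 0.0169). Its call was lost with the replicate block and without knockout-labelled replicate 1 or 2 or WT-labelled replicate 2. Neutrophil markers, beside Siglece and Cd33, rose in 10 of 11 tested, against 19.9% of all genes tested. Among the 10, Mpo, Elane, Camp and Ngp were under 10 in both libraries labelled WT. They passed the filter through the libraries labelled knockout alone and could not have been called lower. Their sums were 3506 and 3637 in the libraries labelled knockout and 233 and 286 in those labelled WT. Without knockout-labelled replicate 1 or 2 the number higher was 6. Mpo, the myeloperoxidase of their granules, had 283 and 264 in the libraries labelled knockout against 0 reads in those labelled WT, and S100a9 rose 13.2-fold. Ly6g, which defines mature neutrophils, had 4.90 and 0 in the libraries labelled knockout against 0 and 6.13 in those labelled WT.

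Of 8 eosinophil markers listed, set beside Siglecf, 3 were tested. None of the 3 rose and 1 fell, beside 19.9% and 13.4% of all genes tested, and so few genes cannot be told from those shares. The gene that fell was Ccr3, a chemokine receptor, by 0.53 on the log2 scale, a call lost without knockout-labelled replicate 1 or 2. Ccr3 was at 399 and 360 in the libraries labelled knockout, against 518 and 576 in those labelled WT. It made up most of the summed list, with sums of 457 and 426 in the libraries labelled knockout and 574 and 608 in those labelled WT. Epx, the eosinophil peroxidase, had 0 reads in the libraries labelled knockout and 5.09 and 4.08 in those labelled WT, and Ear1 and Ear6 were at 0 in all. The part of any of these cells in the values of Siglecg, Cd33, Siglece and Siglecf was not tested.

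**Figure D4:**
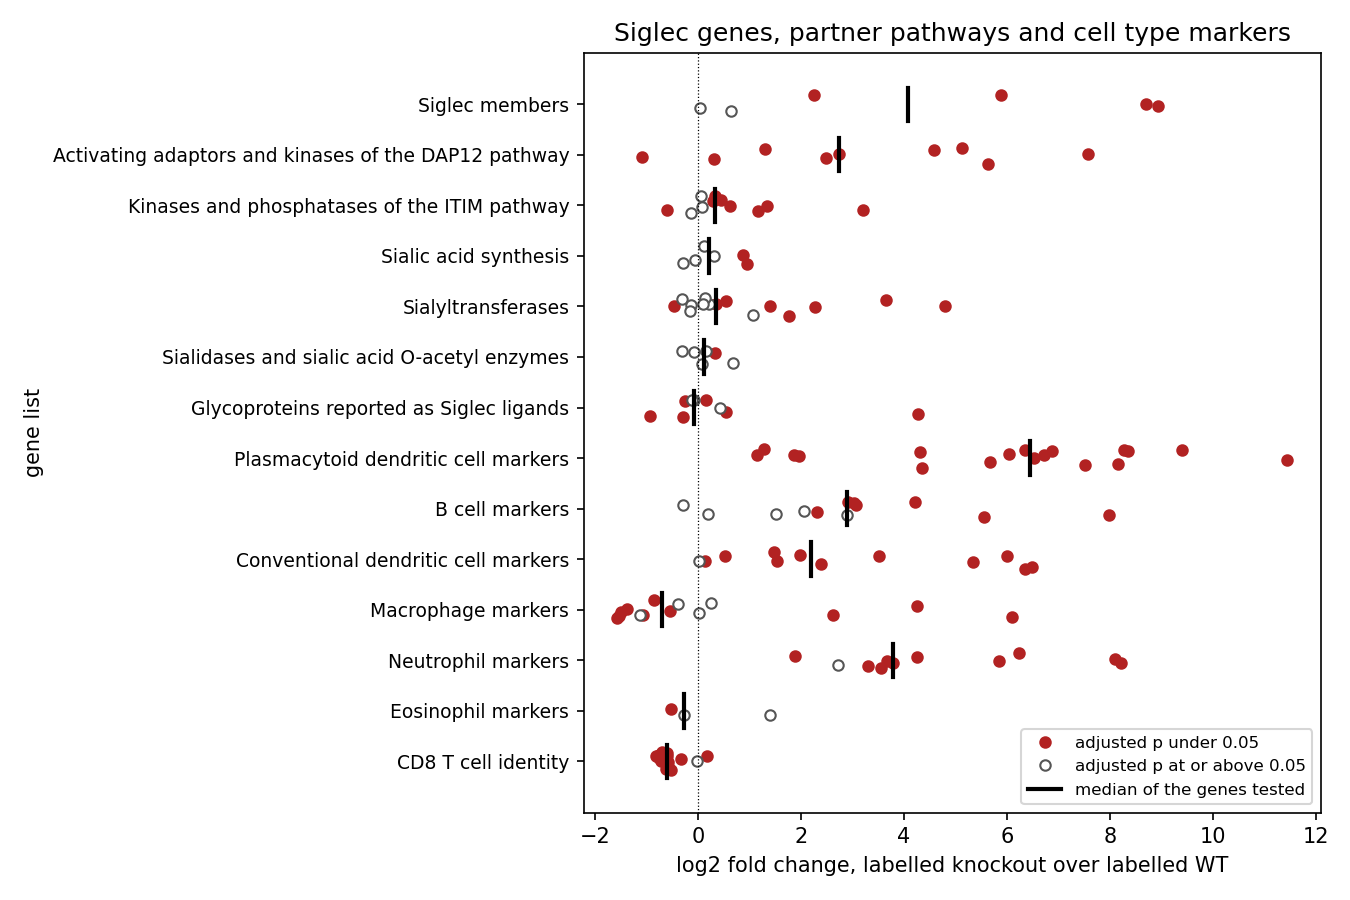
Log2 fold changes of the libraries labelled knockout over those labelled WT for the Siglec genes, their partner pathways and markers of cell types, 1 point per gene tested, filled where the limma adjusted p is under 0.05, with a bar at the median of the genes tested. The medians were 4.07 for the Siglec genes, 6.44 for plasmacytoid dendritic cell markers, 2.19 for conventional dendritic cell markers and -0.60 for CD8 T cell identity.

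Of the 7 genes, 6 lie on chromosome 7, and Siglecf, Siglecg, Cd33 and Siglece lie within 1 cluster there, while Siglech and Cd22 lie apart from it. Genes between the cluster's members did not all share their direction. Nkg7, a granule gene of cytotoxic cells 18.7 kb from Siglecg, fell by 0.84 on the log2 scale, with means of 155334 in the libraries labelled knockout and 279216 in those labelled WT. Vsig10l fell by 0.54, a call lost without knockout-labelled replicate 1 or 2, and Etfb and Cldnd2 did not pass, at 0.01 and -0.22 on the log2 scale. Zfp658, a zinc finger gene 17.8 kb from Cd33, rose, with 682 and 686 in the libraries labelled knockout against 206 and 199 in those labelled WT. Over all genes tested, 19.9% were called higher and 13.4% lower. Of 8 tested genes other than members within 250 kb of Siglecg, 2 rose and 3 fell, and of 11 within 250 kb of Siglece, 2 rose and 4 fell. Without knockout-labelled replicate 1 or 2 these were 1 and 1 near Siglecg and 1 and 2 near Siglece, and without WT-labelled replicate 1 the number higher was 1 near each. With median centring 1 was called higher and 5 lower near each, and DESeq2 and the replicate block called 1 higher near each.

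Siglech stood 499 kb from the nearest protein-coding gene on its lower side, Luzp2, which had 0 reads. On its upper side Tubgcp5, a component of the gamma-tubulin complex 15.2 kb away, had 3786 and 3725 in the libraries labelled knockout, against 1130 and 987 in those labelled WT. It rose by 1.83 on the log2 scale (limma adjusted p = 1.70e-05), and Cyfip1, a regulator of actin 62.8 kb away, by 0.96. Beyond them Nipa2 and Nipa1 did not pass, at 0.07 and 0.09 on the log2 scale. Of 8 genes tested within 250 kb, 2 rose and 1 fell, beside 19.9% and 13.4% of all genes tested. The call of the gene that fell was lost without knockout-labelled replicate 1 or 2.

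**Figure D5:**
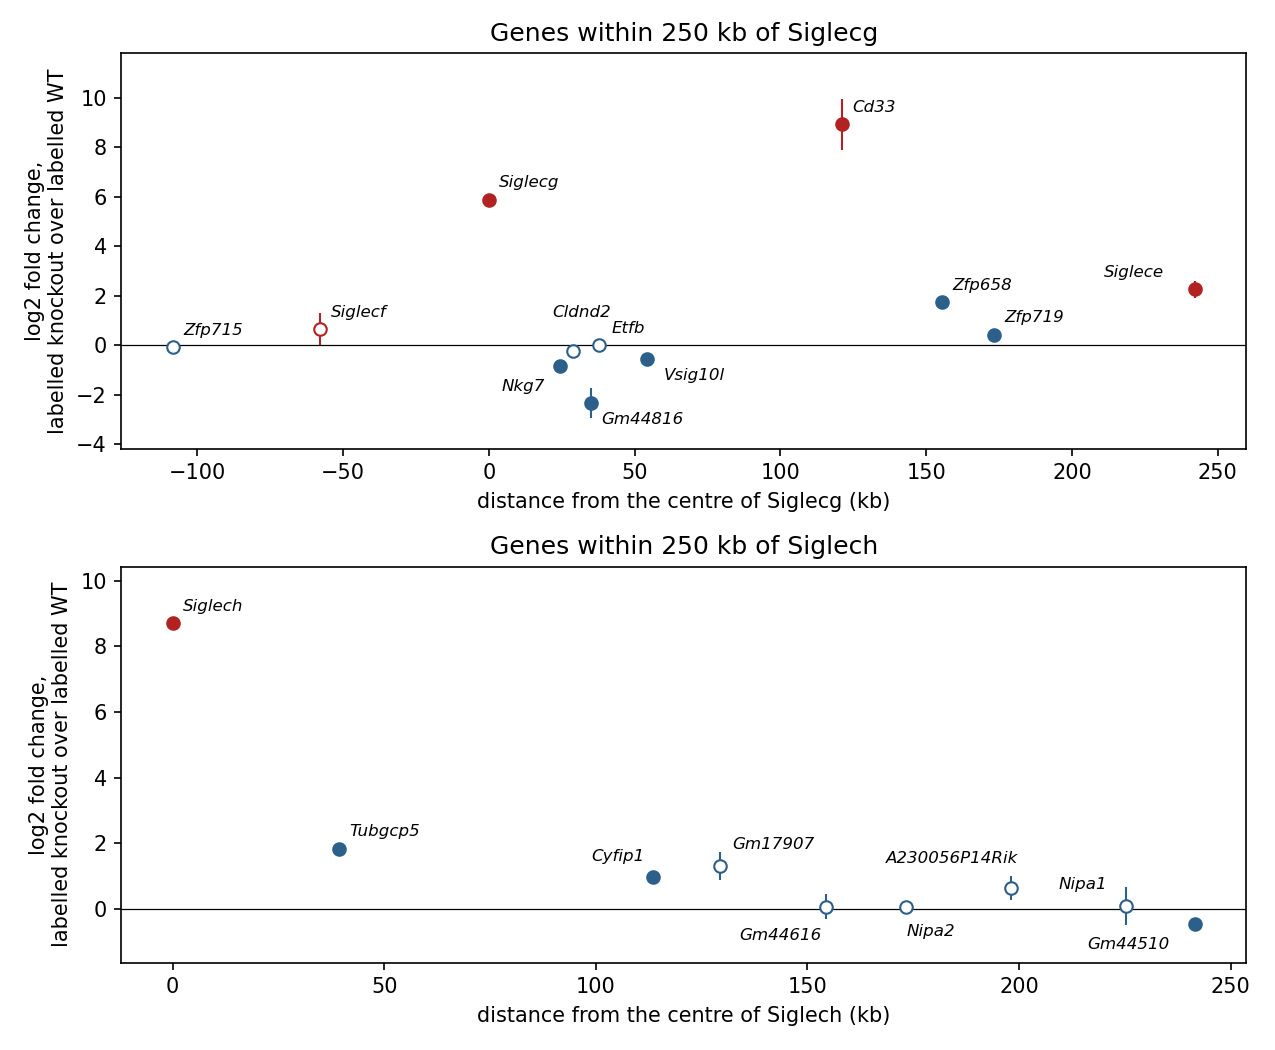
Log2 fold change, with its standard error, of genes tested within 250 kb of Siglecg (upper panel) and Siglech (lower panel), against distance from the centre of each in kb. Siglec genes are red and others blue, and filled points have a limma adjusted p under 0.05. Nkg7 (-0.84) lies between Siglecg (5.88) and Cd33 (8.94), and Tubgcp5 (1.83) is the tested gene nearest to Siglech.

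Genes with the profile nearest to each member that rose were found over 4 libraries among 10831 genes with a mean of at least 100, by Euclidean distance of centred log2 values. Bcl11a, a transcription factor of plasmacytoid dendritic cells and B cells, was at a distance of 0.15 from Siglech, with 12069 and 11660 in the libraries labelled knockout against 31.5 and 29.6 in those labelled WT. Scn3a (0.09) and Klk1b5 (0.18), the other genes near Siglech, had 0 reads in the libraries labelled WT, so their distance depends on the pseudocount. For Siglecg they were Scimp (0.10), an adaptor of antigen-presenting cells, Cybb (0.12), a subunit of the phagocyte oxidase, and Xkrx (0.14). For Siglece they were Cxcl16 (0.08), Fut4 (0.14) and Id3 (0.15), and for Cd33 Gria3 (0.26), Grm8 (0.66) and Serpinh1 (1.04). Those near Cd33, like Cd33 itself, had 0 reads in WT-labelled replicate 2, so their distances depend on the pseudocount too. With 2 groups of 2 libraries such a distance mostly reads the size of the difference between the groups.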

How the data were processed

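The submitters' processing notes name the mm10 build and the tools DESeq2, StringTie 2.1.4, HISAT2 2.2.1 and Trim Galore 0.4.4. The sources used here give no settings, annotation or strand. In the deposited table the authors gave 1 signal column per library, counts divided by a size factor, and their own log2 fold changes (WT over knockout), Wald scores and p-values, per the file headers. All values (100%) were whole multiples of a smallest step within 0.01 reads, so reads were recovered. On them edgeR called 6343 genes, against 6131 by limma.

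limma 3.58.1 (trend, robust) was fitted on log2(normalized count + 1), for genes with at least 10 in at least 2 libraries, with no covariate. A gene under 10 in both libraries of a group passed through the other group alone, so its direction was fixed by the filter. This also held for Cd33 among the members, Timd4 among the macrophage markers, St8sia6 among the sialyltransferases, and Mag. The added 1 draws the log2 fold changes of low genes toward 0. Where replicates differ, the fitted value can still exceed the log2 of the ratio of group means, as for Cd33 and Siglecf. P-values were adjusted by Benjamini-Hochberg over all 18378 genes, with a threshold of 0.05. The tests were tried on simulated counts. The design foresaw this test for normalized values and edgeR for raw counts. Alternatives were other pseudocounts, filters and scalings, edgeR 4.0.16, DESeq2 1.42.0, a replicate block and leaving out each library. Replicates were compared by a chi-square test of their reads: the ratio to its degrees of freedom was 6.45 for the knockout label and 21.7 for the WT label, above sampling noise, and each library was counted as 1 replicate. GENCODE M21 (GRCm38) gave coordinates and exonic lengths, and promoters came from RefSeq. Promoter windows were aligned with scores of 2 for a match, -3 for a mismatch, -5 to open and -2 to extend a gap.

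The members and the 14 other gene lists were chosen with earlier results of these data known. All members are named, and from each list the genes of smallest adjusted p, up to 2 in each direction. Syk, Blnk, Ptpn11, Inpp5d, Ptprc, Pax5, Epx, Ly6g, Klk1, Cd300c and genes at 0 were named after their values were seen, for what they do, as were the neighbours beyond the nearest. Socs3 and Cbl, and genes named for being under the filter in the libraries labelled WT, were also named after their values were seen.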

Additional observations from a re-analysis of the deposited data

How the results depend on the processing

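Siglech and Siglecg kept their direction and their call under all 13 alternatives, with log2 fold changes of 8.40 to 8.76 and 5.54 to 5.99. Cd33 and Siglece kept them under 11 of 13, losing the call without either library labelled knockout. Over the 13, log2 fold changes were 6.75 to 10.68 for Cd33 and 1.795 to 2.39 for Siglece. Cd33 had 0 reads in WT-labelled replicate 2, so its value depends on the pseudocount. Leaving out 1 library at a time gave 7.43 to 10.45 for Cd33, 2.13 to 2.39 for Siglece (2.15 and 2.38), -0.32 to 1.62 for Siglecf and -0.016 to 0.088 for Cd22. The sign of Cd22 turned with median centring (-0.26), without knockout-labelled replicate 1 (-0.016) and without WT-labelled replicate 2 (-0.01), and that of Siglecf without WT-labelled replicate 2 (-0.32); the cause was not tested. The number of members called higher was 2 to 5 and that of all genes called 1939 to 6896 on leaving out a library (1309 to 4137 higher, 630 to 2759 lower). A fit with 1 library in a group assumes that it varies like the other group. Median centring shifted the all-gene median to -0.28, against 0.02 without it, and called 9599 genes, 2389 higher and 7210 lower, against 3662 and 2469 without it, and the number of members called higher was 4 either way. Siglech held 97.4% of the family per kilobase in the libraries labelled knockout. The labels share replicate numbers, but deviations of same-numbered libraries correlated at 0.02, so the numbers were not taken as pairs. With the replicate block 5583 genes and 4 members were called. Of 389 other recomputed values for lists, Mag and Irf8, 346 kept their call or count within 1.5 times, 40 counts moved beyond that and 3 calls were lost. With 2 libraries a group, and under 20 reads per library for Siglec1, depth limits what can be said of that gene.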
